A study of Rattus norvegicus with 8 samples.

Results

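The nuclear genes of the respiratory chain and of ATP synthase were described in the dorsal lumbar spinal cord of nerve-injured rats that received a histone deacetylase inhibitor (HDACI) or vehicle. A gene was taken when its symbol began with Nduf (assembly factors left out), Uqcr, Atp5 or Cox followed by a digit from 4 to 8, or was Sdha, Sdhb, Sdhc, Sdhd or Cyc1, and when its probe set carried that symbol alone. The rule found 89 probe sets of 77 genes, of 14506 genes with a single symbol on the array: 34 genes of complex I, 4 of complex II, 7 of complex III, 16 of complex IV and 16 of complex V. No measured value entered the rule. The symbols Ndufs6-ps1 and Cox6c-ps1 carry the suffix of a pseudogene, Cox7a2l and Atp5if1 are a supercomplex factor and an inhibitor rather than subunits, and Ndufa4, counted here with complex I by its symbol, is now regarded as a subunit of complex IV.

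All 8 adult male Wistar rats had an L5 spinal nerve transection, and the dorsal ipsilateral cord at L4 to L6 was taken at day 14 after it. The HDACI group (n = 4) received MS-275, a class I-selective inhibitor, at 30 nmol/day through an intrathecal pump placed before the injury, and the vehicle group (n = 4) received saline with DMSO by the same route. There was no uninjured group, so the values compare drug with vehicle in injured cord only. The tissue is a mixture of neurons, glia, vessels and meninges, in which fewer cells of a type and less RNA per cell cannot be told apart.

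The respiratory chain passes electrons from NADH through complex I, or from succinate through complex II, to ubiquinone, on through complex III to cytochrome c, and through complex IV to oxygen. Complexes I, III and IV pump protons across the inner mitochondrial membrane, and complex V, the ATP synthase, uses the gradient to make ATP. Most subunits are encoded in the nucleus, and several of complex IV exist as isoforms that differ between tissues. In the cord, neurons and their synapses are heavy users of this ATP.

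Values are RMA signals on the log2 scale, which give relative levels on each array, and a difference is always HDACI minus vehicle. Transcript levels of the respiratory chain differed little between the groups. Of the 77 genes, 45 (58.4%) had a difference below 0, as did 57.9% of all 14506 genes, and the median difference was -0.020 against -0.014 for all genes. At an adjusted p under 0.05 (limma, Benjamini-Hochberg over all genes) 0 of the 77 were called, and the smallest adjusted p was 0.610. Over all 14506 genes the count was 0 as well (0.0%). Probe sets without a single symbol were not part of this fit. The study, which did not average probe sets in this way, reported a mitochondrial transfer RNA as passing its own correction. At the unadjusted p under 0.01 that the study used, 1 gene was lower with HDACI (Cox5a) and 2 were higher (Cox4i2 and Cox6a2). Among all genes 0.855% were called lower and 0.607% higher by that rule. At an unadjusted p under 0.05, 5 of the 77 were lower and 4 higher, beside 4.96% and 2.79% of all genes.

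In 5 genes the 4 HDACI arrays all lay below the 4 vehicle arrays: Cox5a, Ndufs1, Ndufv1, Ndufb5 and Atp5f1d. In 0 genes did they all lie above. Among all genes 3.6% were separated downward and 1.42% upward. The 95% confidence interval lay within 1.2-fold in either direction for 69 of the 77 genes (89.6%), against 78.3% of all genes. The exceptions were Ndufa10, Ndufb2, Ndufs5, Cox4i2, Cox6a2, Cox6b2, Cox7a2l and Atp5mg, whose intervals reached further upward. The median SD within groups was 0.069 for the 77 genes and 0.087 for all genes.

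**Figure D1:**
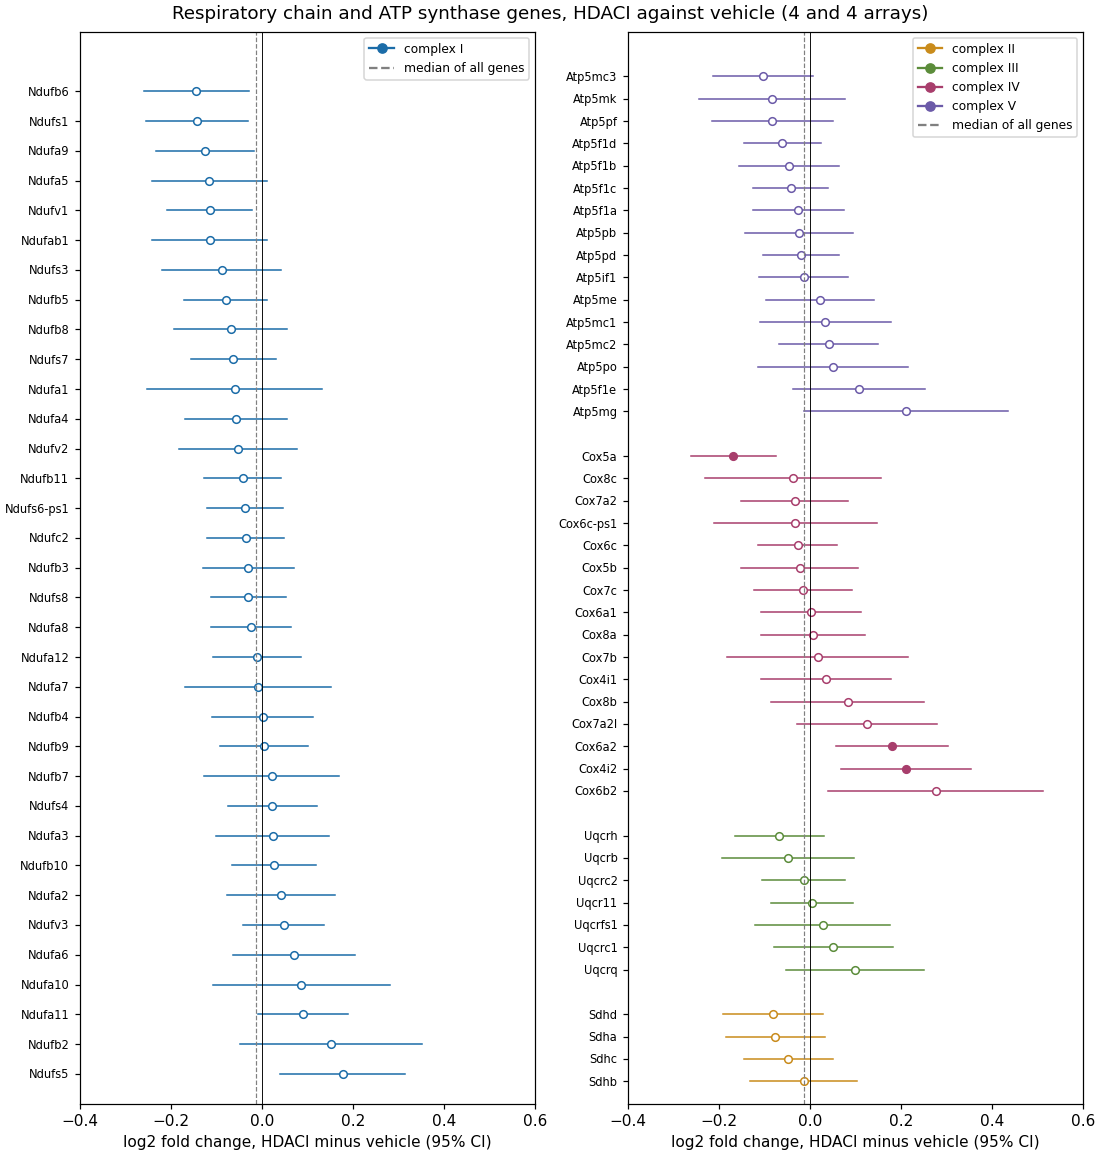
Difference between HDACI and vehicle on the log2 scale (horizontal axis) for each of the 77 genes, by complex, with its 95% confidence interval from limma (n = 4 arrays per group). Filled points have an unadjusted p under 0.01 (Cox5a to the left, Cox4i2 and Cox6a2 to the right), and the dashed line is the median of all genes. Most intervals cross 0. Those of Cox5a, Ndufb6, Ndufs1, Ndufa9 and Ndufv1 lie below 0, and those of Cox4i2, Cox6a2, Cox6b2 and Ndufs5 above it.

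Complex I, which oxidises NADH, had 21 of 34 genes below 0 and a median difference of -0.030. None passed an unadjusted p under 0.01 in limma. At an unadjusted p under 0.05, 4 of the 34 were lower and 1 was higher, beside 4.96% and 2.79% of all genes. Its catalytic core and its surrounding supernumerary subunits were looked at apart. All 6 measured core genes were below 0, with a median of -0.076, and of 28 supernumerary genes 15 were below 0, with a median of -0.010. As array means the core genes stood at 0.019, -0.11, -0.018 and -0.055 with HDACI. With vehicle they stood between 0.0078 and 0.068, so HDACI replicate 1 lay inside the vehicle range and HDACI replicate 2 was lowest. The difference between the core and supernumerary medians was not tested.

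Ndufv1 encodes the flavoprotein that takes electrons from NADH. Its signals were 11.25, 11.14, 11.20 and 11.18 on the HDACI arrays and 11.28, 11.34, 11.28 and 11.34 on the vehicle arrays, a difference of -0.11 (SE 0.04, unadjusted p = 0.0210, adjusted p = 0.620, limma). Every HDACI array was below every vehicle array, by a gap of 0.026. Ndufs1, the large iron-sulphur protein beside it, was at 11.12, 10.91, 11.04 and 11.02 with HDACI and at 11.14, 11.15, 11.20 and 11.17 with vehicle. Its groups were also separate, by 0.020, with HDACI replicate 2 the lowest array. The difference was -0.14 (SE 0.05, unadjusted p = 0.0186, adjusted p = 0.610, limma), and without HDACI replicate 2 it was -0.11.

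The other core genes had smaller differences within the spread of the arrays. Ndufv2, an iron-sulphur partner of Ndufv1, differed by -0.05, and Ndufs3, part of the module that binds ubiquinone, by -0.09. Ndufs7 and Ndufs8, whose iron-sulphur clusters hand electrons on to ubiquinone, differed by -0.06 and -0.03. The unadjusted p of these 4 genes ran from 0.162 to 0.438 in limma.

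Among the supernumerary genes the lowest difference was that of Ndufb6, a subunit of the membrane arm. It measured 12.15, 11.96, 12.04 and 11.98 with HDACI and 12.19, 12.12, 12.18 and 12.22 with vehicle. HDACI replicate 1 lay within the vehicle range and the other 3 below it. The difference was -0.14 (SE 0.05, unadjusted p = 0.0204, adjusted p = 0.617, limma). Ndufb5, also of the membrane arm, measured 11.75, 11.68, 11.76 and 11.65 with HDACI and 11.80, 11.78, 11.77 and 11.81 with vehicle. The groups did not overlap, yet the difference was only -0.08 (SE 0.04, unadjusted p = 0.0781, limma).

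At the upper end of complex I, Ndufs5, a small subunit on the intermembrane side, measured 10.97, 11.07, 11.11 and 10.98 with HDACI and 10.76, 10.85, 10.80 and 11.01 with vehicle. Vehicle replicate 4 lay inside the HDACI range and the other 3 vehicle arrays below it. The difference was 0.18 (SE 0.06, unadjusted p = 0.0171, adjusted p = 0.610, limma), and its 2 probe sets each gave 0.18. Ndufb2, another membrane arm subunit, differed by 0.15 (SE 0.09). Its vehicle arrays split into a pair near the HDACI level, at 9.57 and 9.60, and a pair at 9.22 and 9.25, so the groups overlapped. The remaining complex I genes differed by between -0.13 (Ndufa9) and 0.09 (Ndufa11). Ndufa4 differed by -0.06 (SE 0.05).

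Complex II, succinate dehydrogenase, belongs to the tricarboxylic acid cycle as well as to the respiratory chain. All 4 genes were below 0, with a median of -0.063, and the smallest adjusted p was 0.716 in limma. Sdha, the flavoprotein that oxidises succinate, measured 11.55, 11.37, 11.52 and 11.46 with HDACI and 11.52, 11.54, 11.54 and 11.60 with vehicle, a difference of -0.08 (SE 0.05). HDACI replicate 1 lay inside the vehicle range. Sdhd and Sdhc, which anchor the enzyme in the membrane, differed by -0.08 (SE 0.05) and -0.05 (SE 0.04). Sdhd was at 10.65 on vehicle replicate 1, above the other vehicle arrays at 10.48 to 10.51. Over the fits with 1 array left out its difference ran from -0.10 to -0.042. Sdhb, the iron-sulphur subunit, differed by -0.01 (SE 0.05) and turned above 0 when HDACI replicate 2 was left out. The median of the complex was -0.031 without that array.

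Complex III, cytochrome bc1, had 3 of 7 genes below 0 and a median of 0.0048. The lowest difference was -0.07 (SE 0.04) for Uqcrh, the hinge protein that helps cytochrome c to dock, and the highest 0.10 (SE 0.07) for Uqcrq, a small subunit. Uqcrb, a small subunit measured by 3 probe sets, differed by -0.05 in each of them. Uqcrfs1, the Rieske iron-sulphur protein, differed by 0.03 (SE 0.07), and the core protein Uqcrc1 by 0.05 (SE 0.06). All 7 intervals lay within 1.2-fold. Their adjusted p was at least 0.731 in limma.

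Complex IV, cytochrome c oxidase, held the 3 genes with an unadjusted p under 0.01, and they went in both directions. Its median difference was 0.0037, with 7 of 16 genes below 0. The isoforms known from particular tissues and the other genes of the complex had different medians. The 5 measured tissue-restricted isoforms (Cox4i2, Cox6a2, Cox6b2, Cox8b and Cox8c) had a median of 0.18, with 4 above 0. The other 11 genes, among them Cox6c-ps1 and Cox7a2l beside the ubiquitous subunits, had a median of -0.016, with 6 below 0. The difference between these medians was not tested.

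Cox5a, a ubiquitous subunit on the matrix side of the enzyme, measured 11.97, 11.93, 12 and 11.89 on the HDACI arrays and 12.11, 12.17, 12.08 and 12.09 on the vehicle arrays. Each HDACI array was below each vehicle array, by a gap of 0.087. The difference was -0.17 (SE 0.04, 95% confidence interval -0.26 to -0.08), or 0.89 times the vehicle level, with an unadjusted p of 0.00259 and an adjusted p of 0.610 in limma. The exact two-sided permutation test gave p = 0.0286, the smallest that 4 against 4 arrays allow. This value follows from the separation of the groups and was the same for Ndufs1, Ndufv1, Ndufb5 and Atp5f1d. The 2 probe sets of Cox5a gave -0.18 and -0.16 (unadjusted p = 0.00287 and 0.00481 in the fit over all probe sets, limma). Without HDACI replicate 2 the difference was -0.16 (unadjusted p = 0.00694, limma), and without HDACI replicate 4 it was -0.15 (unadjusted p = 0.01002, limma), just past the threshold. Cox5b, another ubiquitous subunit, differed by -0.02 (SE 0.06).

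Cox4i2 is an oxygen-responsive isoform known from lung, which can stand in the place of the ubiquitous Cox4i1. It measured 7.85, 8.06, 7.96 and 8.02 with HDACI and 7.67, 7.90, 7.75 and 7.73 with vehicle, and vehicle replicate 2 lay above HDACI replicate 1. The difference was 0.21 (SE 0.06), or 1.16-fold, with an unadjusted p of 0.00838 and an adjusted p of 0.610 in limma. Cox4i1 itself was at 12.11, 11.99, 12.08 and 11.84 with HDACI and at 12.05, 11.97, 11.95 and 11.91 with vehicle. The difference was 0.04 (SE 0.06), and the highest and the lowest of the 8 arrays were both HDACI arrays.

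Cox6a2 is the heart and skeletal muscle isoform of a subunit whose other form, Cox6a1, is found in most tissues. It measured 8.67, 8.54, 8.52 and 8.63 with HDACI and 8.37, 8.39, 8.52 and 8.36 with vehicle. The groups touched: HDACI replicate 3 and vehicle replicate 3 differed by 0.0025 in favour of vehicle. The difference was 0.18 (SE 0.05), or 1.13-fold, with an unadjusted p of 0.00863 and an adjusted p of 0.610 in limma. Cox6a1 differed by 0.0015 (SE 0.05). The fit over all probe sets called 1 member probe set higher at an unadjusted p under 0.01, that of Cox4i2, with Cox6a2 at an unadjusted p = 0.0105, and 2 lower, both of Cox5a. Over all 29214 probe sets 0.681% were higher and 0.616% lower.

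Cox6b2, known as the testis isoform of a further subunit, had the highest difference of all 77 genes, 0.28 (SE 0.11, unadjusted p = 0.0266, adjusted p = 0.627, limma). It measured 7.60, 8.07, 7.70 and 7.83 with HDACI and 7.40, 7.54, 7.43 and 7.71 with vehicle. The groups overlapped through HDACI replicates 1 and 3 and vehicle replicate 4, and without HDACI replicate 2 the difference was 0.19. Cox8b and Cox8c, the other muscle and testis isoforms, had signals at the level of olfactory receptors, which the cord is not known to use: they did not pass 6.84, the 90th percentile of the means of 53 such genes. The same held for Cox6c-ps1, and 74 of the 77 genes lay above it. Cox8b differed by 0.08 (SE 0.07) and Cox8c by -0.04 (SE 0.09), while the ubiquitous Cox8a differed by 0.0060 (SE 0.05). Cox7a2 differed by -0.03 (SE 0.05) and Cox7a2l by 0.12 (SE 0.07).

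**Figure D2:**
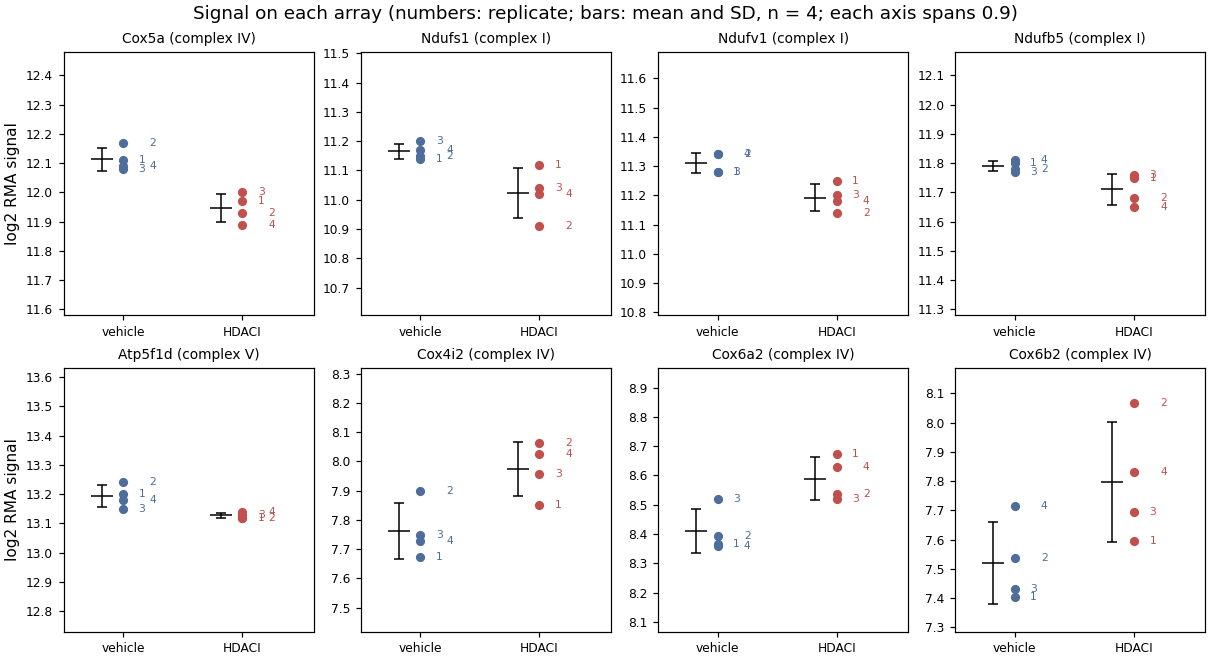
RMA signal on the log2 scale (vertical axis, each panel spanning 0.9) on every vehicle and HDACI array for the 5 genes whose groups did not overlap and for Cox4i2, Cox6a2 and Cox6b2. Digits beside the points are replicate numbers and bars give the mean and SD (n = 4); the gap is widest for Cox5a (0.087), while the groups of the 3 complex IV isoforms overlap or touch.

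The calls in complex IV rested on single arrays to different degrees. Both higher calls were lost without HDACI replicate 4 (Cox4i2 unadjusted p = 0.0256, Cox6a2 unadjusted p = 0.0261, limma) and without vehicle replicate 1 (unadjusted p = 0.0269 and 0.0258, limma). That of Cox4i2 was also lost without HDACI replicate 2 (unadjusted p = 0.0247), HDACI replicate 3 (unadjusted p = 0.0173), vehicle replicate 3 (unadjusted p = 0.0207) or vehicle replicate 4 (unadjusted p = 0.0218), all from limma. That of Cox6a2 was lost without HDACI replicate 1 (unadjusted p = 0.0270), vehicle replicate 2 (unadjusted p = 0.0203) or vehicle replicate 4 (unadjusted p = 0.0236), again from limma. In each of these fits both differences stayed above 0, between 0.18 and 0.26 for Cox4i2 and between 0.15 and 0.22 for Cox6a2.

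Markers of several other cell types were high on some of the same arrays as the tissue-restricted isoforms. As a deviation from their mean over the 8 arrays, the 5 isoforms together stood at -0.0087, 0.16, 0.036 and 0.097 on the HDACI arrays. On the vehicle arrays they stood between -0.10 and -0.048, so these means did not overlap. Taken singly, each of the 5 isoforms overlapped between the groups, and the highest differences were those of Cox4i2, Cox6a2 and Cox6b2. How often the means of other sets of genes separate was not counted. The 12 markers of mural cells, the contractile cells of vessel walls, stood at -0.088, 0.24, 0.094 and 0.022 with HDACI and between -0.11 and -0.020 with vehicle, so that HDACI replicate 1 lay inside the vehicle range. Of these markers 10 of 12 were above 0, with a median of 0.092, and 1 passed an unadjusted p under 0.01, Des (0.67, SE 0.11). Endothelial markers had 8 of 9 above 0 with a median of 0.054, at -0.10, 0.20, 0.065 and -0.015 on the HDACI arrays and between -0.061 and 0.021 with vehicle. Microglial markers had 9 of 10 above 0 with a median of 0.16, at 0.030, 0.21, -0.087 and 0.16 with HDACI and between -0.29 and 0.15 with vehicle. Leptomeningeal markers had 7 of 10 above 0 with a median of 0.17, and like both of these lists their groups overlapped. Skeletal muscle markers had 4 of 9 above 0 and a median of -0.031, and of their array means all 8 lay between -0.065 and 0.059. The part of these cell types in the isoform values was not tested.

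**Figure D3:**
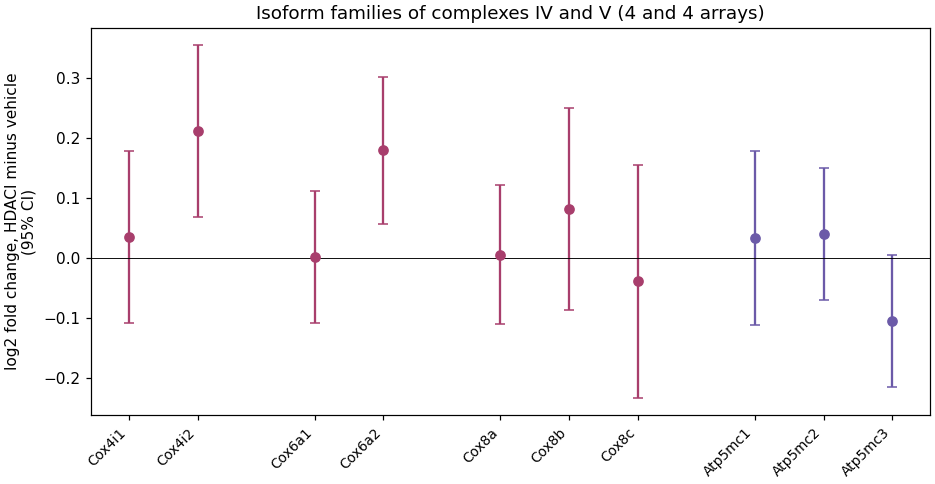
Difference between HDACI and vehicle on the log2 scale (vertical axis) with its 95% confidence interval from limma (n = 4 arrays per group) for the isoform families of complex IV (Cox4, Cox6a and Cox8) and for the 3 c-ring genes of complex V. Cox4i2 and Cox6a2 lie above 0 and their ubiquitous partners near it, and Cox8b and Cox8c are at the level of the olfactory receptors.

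Complex V had 10 of 16 genes below 0 and a median of -0.022, and limma gave none of them an unadjusted p under 0.05. The soluble F1 part, where ATP is made, had 4 of 5 genes below 0 and a median of -0.043. Its alpha and beta subunits, Atp5f1a and Atp5f1b, differed by -0.03 (SE 0.04) and -0.05 (SE 0.05), and the gamma subunit Atp5f1c by -0.04 (SE 0.04). The delta subunit Atp5f1d measured 13.12, 13.12, 13.13 and 13.14 with HDACI and 13.20, 13.24, 13.15 and 13.18 with vehicle. The groups were separate, by only 0.0029, with a difference of -0.06 (SE 0.04, unadjusted p = 0.136, limma). The epsilon subunit Atp5f1e differed by 0.11 (SE 0.06), with vehicle replicate 4 lowest, and by 0.04 without that array.

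The c ring, the turning part of the enzyme in the membrane, is encoded by 3 genes whose mature proteins are known to be the same. Atp5mc1 and Atp5mc2 differed by 0.03 (SE 0.06) and 0.04 (SE 0.05), and Atp5mc3 by -0.10 (SE 0.05, unadjusted p = 0.0603, adjusted p = 0.650, limma). Atp5mc3 measured 10.83, 10.72, 10.80 and 10.73 with HDACI and 10.78, 10.94, 10.88 and 10.90 with vehicle, overlapping through vehicle replicate 1. Whether the 3 genes differed from each other was not tested.

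Of the other 8 genes of complex V, 5 were below 0, with a median of -0.017. Atp5mg, the g subunit of the membrane part, measured 9.98, 9.71, 9.85 and 9.76 with HDACI and 9.57, 9.89, 9.59 and 9.41 with vehicle. The difference was 0.21 (SE 0.10, unadjusted p = 0.0637, limma), and vehicle replicate 2 lay inside the HDACI range. Without that array it was 0.30 (unadjusted p = 0.00402, limma). That was the highest of the fits leaving out each array in turn. Those fits ran down to 0.14, with an unadjusted p of up to 0.173 in limma. Atp5mk, a small membrane subunit, differed by -0.08 (SE 0.07). The stalk subunits Atp5pb, Atp5pd, Atp5pf and Atp5po and the inhibitor Atp5if1 differed by between -0.08 and 0.05.

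Most complexes shared their highest and their lowest array. HDACI replicate 1 was the highest array for complexes I, III, IV and V (0.049, 0.055, 0.041 and 0.057 from their means), and HDACI replicate 2 the lowest for complexes I, II and V (-0.053, -0.099 and -0.059). In complex III HDACI replicate 2 and vehicle replicate 4 were both at -0.051. Complex IV did not share the low value, at 0.022 on HDACI replicate 2, and its 11 genes without the tissue-restricted isoforms stood at -0.041 there and lowest, at -0.056, on HDACI replicate 4. In each of the 5 complexes the ranges of the HDACI and vehicle arrays overlapped.

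HDACI replicate 2 also stood apart in its markers. It was lowest for the mean of the 14 neuronal markers (-0.16, other arrays -0.062 to 0.12). It was highest for the mean of the 10 markers of leptomeningeal fibroblasts (0.70, others -0.39 to 0.25). The same held for the means of mural cells (0.24) and of 4 red blood cell genes (1.34, others -0.61 to 0.62). Single markers could differ: Nefm was lowest on HDACI replicate 4, and the leptomeningeal Dcn was highest on vehicle replicate 2. Markers of Schwann cells, from peripheral nerve, spread widely within both groups. The mean of these 5 genes stood at -0.65, 0.94, 0.28 and -0.80 with HDACI and at 0.70, 0.70, -0.88 and -0.30 with vehicle. Among them Pmp2 ran from 8.10 to 12.15 with HDACI and from 7.98 to 11.92 with vehicle, while Mbp stayed between 11.34 and 11.48. Of the neuronal markers 13 of 14 were below 0 with a median of -0.060, and Snap25, a synaptic protein, was well measured at a mean of 13.6 in both groups. Differences in this list ran from -0.26 (Tubb3) to 0.013 (Slc32a1). The smallest unadjusted p were 0.0467 (Nefl, -0.12) and 0.0542 (Nefm, -0.25) in limma. Without HDACI replicate 2, 39 of the 77 genes were below 0, with a median of -0.012. The medians of complexes I to V were then -0.025, -0.031, 0.023, 0.020 and -0.0074. The part of tissue composition in these values was not tested.

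**Figure D4:**
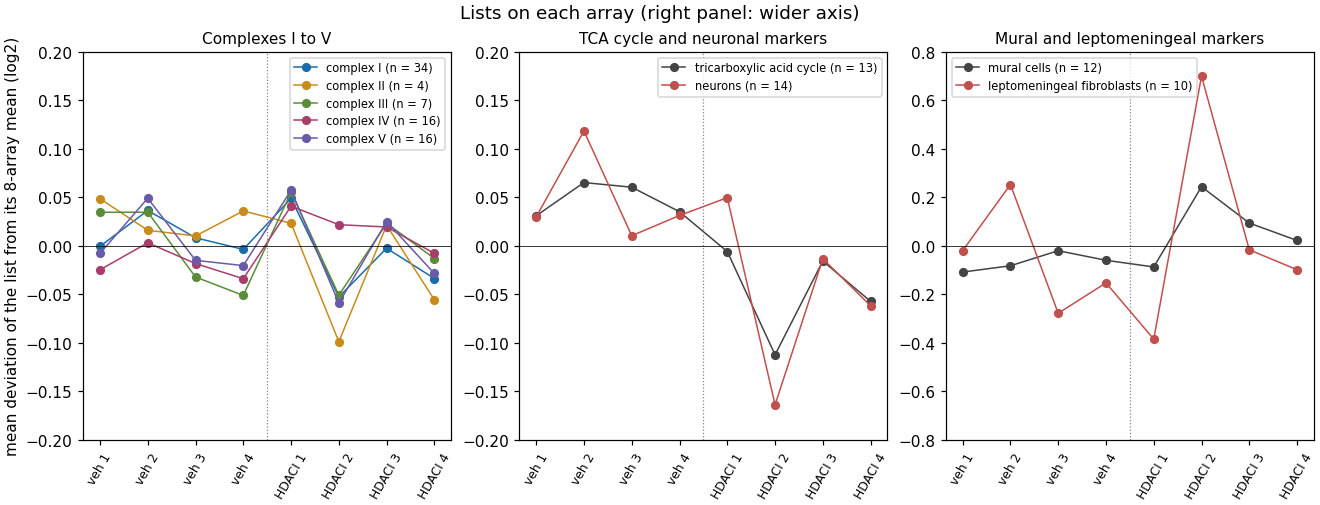
Mean deviation of each list from its own mean over the 8 arrays (vertical axis, log2 scale) on the 4 vehicle (veh) and 4 HDACI arrays, for the 5 complexes (left), the tricarboxylic acid cycle and neuronal markers (middle) and mural and leptomeningeal markers (right, wider axis). HDACI replicate 2 is low for complexes I, II and V, the tricarboxylic acid cycle and neuronal markers and high for both right-hand lists.

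Genes that feed, build or serve the chain were set beside it. The tricarboxylic acid cycle with pyruvate dehydrogenase, which supplies NADH, had 13 of 13 measured genes below 0 and a median of -0.11. The gene with an unadjusted p under 0.01 was Pdhb of pyruvate dehydrogenase (-0.18, SE 0.05, unadjusted p = 0.00696, adjusted p = 0.610, limma). Among all genes 0.855% were called lower by that rule. At an unadjusted p under 0.05, 5 of the 13 were lower, beside 4.96% of all genes. The HDACI arrays lay wholly below the vehicle arrays for 5 of the 13, beside 3.6% of all genes. As array means the list ran from -0.11 to -0.0060 with HDACI and from 0.031 to 0.065 with vehicle. The carriers of phosphate and adenine nucleotides, the outer membrane channels and mitochondrial creatine kinase had 7 of 7 genes below 0. Their median was -0.097, with 0 called at an unadjusted p under 0.01. At an unadjusted p under 0.05, 3 of them were lower, beside 4.96% of all genes. The array means of these carriers and channels ran from -0.10 to -0.0014 with HDACI and from 0.022 to 0.054 with vehicle. Of all genes 57.9% were below 0. The phosphate carrier Slc25a3 differed by -0.11 (SE 0.04) and the creatine kinase Ckmt1 by -0.13 (SE 0.05). The medians of both lists lay further from 0 than those of complexes I to V, a difference that was not tested.

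Assembly factors, which build the complexes but are not part of them, had 24 of 30 genes below 0 and a median of -0.045, with 0 called. At an unadjusted p under 0.05, 2 of the 30 were lower, beside 4.96% of all genes. The array means of this list ran from -0.040 to -0.0067 with HDACI and from -0.00165 to 0.046 with vehicle. Timmdc1, which assembles the membrane arm of complex I, differed by -0.12 (SE 0.04), and Cox18, which inserts a complex IV subunit into the membrane, by -0.19 (SE 0.07). Cytochrome c and the enzymes of coenzyme Q synthesis, the mobile carriers of electrons, had 10 of 13 below 0 and a median of -0.060, with 0 called. At an unadjusted p under 0.05, 3 of the 13 were lower, beside 4.96% of all genes. Coq5 and Coq3, both methyltransferases of coenzyme Q synthesis, differed by -0.14 (SE 0.05) and -0.11 (SE 0.04). Cytochrome c, Cycs, differed by -0.07 (SE 0.05).

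Transcriptional regulators of mitochondrial genes had 14 of 19 below 0 and a median of -0.037, with 0 called. At an unadjusted p under 0.05, 1 of the 19 was lower, beside 4.96% of all genes. Esrrb, an orphan nuclear receptor, differed by -0.11 (SE 0.04), and Tfb1m, a mitochondrial ribosomal RNA methyltransferase, by -0.12 (SE 0.06). Of the factors whose motifs are given next, Nrf1 differed by 0.0054 (SE 0.05), Gabpa by -0.0012 (SE 0.08), Yy1 by 0.09 (SE 0.05) and, among the oestrogen-related receptors, Esrra by 0.01 (SE 0.05) and Esrrg by -0.12 (SE 0.09), beside Esrrb above. Of these, Esrrb had an unadjusted p = 0.0213 and an adjusted p = 0.625 in limma, and the others did not reach an unadjusted p under 0.05. Its mean signals, 7.32 with HDACI and 7.43 with vehicle, were little above the highest olfactory receptor mean of 7.22.

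Promoters were read from RefSeq (GRCr8), from 250 bases before to 50 after each gene's start, and 67 of the 77 genes had an entry. Short motifs known from respiratory genes were searched on both strands: GCATGCGC for NRF1, CCGGAAG for the ETS factor GABP, AAGATGGC for YY1, AAGGTCA for the oestrogen-related receptors and GGGCGGG for Sp1, none of which is part of another. NRF1 letters were in 9 of the 67 promoters (13.4%, against 2.77% of 27457 genes with a promoter entry and 3.9% of the 11951 of these measured on the array). ETS letters were in 20 (29.9%, against 9.63% and 13.1%) and YY1 letters in 13 (19.4%, against 3.62% and 4.33%). The letters of the oestrogen-related receptors were in 10 (14.9%, against 4.83% and 3.51%). Those of Sp1 were in 17 (25.4%), near the 25.1% of all promoters and below the 37.2% of the measured ones. One or more of the NRF1, ETS and YY1 motifs was in 31 of 67 (46.3%), against 14.7% of all promoters and 19.3% of the measured ones.

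Those 31 genes had a median difference of -0.015 with 17 below 0, and the other 36 a median of -0.020 with 22 below 0. The promoters of the 2 called genes with an entry are shown beside 2 that hold motif letters, of the ubiquitous Cox4i1 and of Ndufa6, a complex I subunit with 4 of the 5 motifs and a difference of 0.07 (SE 0.06). Capitals mark the motif letters, which on the opposite strand read as their reverse complement. The windows of Cox5a (chr8:66818034-66818333, plus strand) and Cox6a2 (chr1:192219667-192219966, minus strand) held none of the 5. That of Cox4i1 (chr19:65630133-65630432, plus strand) held the ETS letters at 2 places and those of Sp1 at 1, and that of Ndufa6 (chr7:115750268-115750567, minus strand) the letters of ETS, NRF1, Sp1 and YY1 in that order.
Cox5a: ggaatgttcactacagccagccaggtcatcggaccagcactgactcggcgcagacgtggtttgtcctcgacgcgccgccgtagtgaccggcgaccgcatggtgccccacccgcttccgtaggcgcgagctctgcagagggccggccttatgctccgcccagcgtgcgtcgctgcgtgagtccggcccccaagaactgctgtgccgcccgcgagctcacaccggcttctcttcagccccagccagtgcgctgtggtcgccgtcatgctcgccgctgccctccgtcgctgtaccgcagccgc
Cox6a2: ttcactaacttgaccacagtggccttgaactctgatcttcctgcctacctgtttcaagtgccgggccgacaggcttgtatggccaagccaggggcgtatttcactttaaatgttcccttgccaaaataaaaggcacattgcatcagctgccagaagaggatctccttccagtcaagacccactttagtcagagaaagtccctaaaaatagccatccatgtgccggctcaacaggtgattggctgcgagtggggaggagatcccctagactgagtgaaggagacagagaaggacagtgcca
Cox4i1: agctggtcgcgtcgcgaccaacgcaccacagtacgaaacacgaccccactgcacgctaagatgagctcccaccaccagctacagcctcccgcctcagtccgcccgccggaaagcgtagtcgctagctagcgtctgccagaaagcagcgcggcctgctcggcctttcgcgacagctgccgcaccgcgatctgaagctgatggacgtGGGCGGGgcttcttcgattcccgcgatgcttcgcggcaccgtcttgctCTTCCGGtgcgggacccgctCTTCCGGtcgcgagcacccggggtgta
Ndufa6: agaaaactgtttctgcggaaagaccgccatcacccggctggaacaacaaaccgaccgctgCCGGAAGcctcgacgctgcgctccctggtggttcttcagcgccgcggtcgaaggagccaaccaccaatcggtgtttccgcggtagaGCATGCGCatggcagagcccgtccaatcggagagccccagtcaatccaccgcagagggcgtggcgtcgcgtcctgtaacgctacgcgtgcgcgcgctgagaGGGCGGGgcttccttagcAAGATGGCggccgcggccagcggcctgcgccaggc
A match is a run of letters and not a measured binding site, and no binding or acetylation at these promoters was analysed here.

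Of the 77 genes, 66 rested on 1 probe set, and in the 11 with several all probe sets of a gene had the same sign. Respiratory genes have many processed copies in mammalian genomes, and a probe set can read a near-identical copy as well as the gene, so the identity of single signals, and of genes with several probe sets such as Cox5a and Uqcrb, carries that uncertainty.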

How the data were processed

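Dorsal lumbar cord RNA of 4 HDACI and 4 vehicle rats was hybridised to the Rat Gene 1.0 ST array of Affymetrix. The deposited values are log2 signals: scans were read with oligo and processed by the authors with RMA (background correction, equal signal distributions on all arrays, a summary per probe set). A change shared by most transcripts would therefore not be seen, and differences of dim probe sets are compressed. The sources used here give no versions. Groups came from the sample titles, since the treatment text in the labels describes the drug for all 8 samples, and the methods state 4 biological replicates per group.

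Of 29214 probe sets, 15310 had a single symbol in the platform annotation, updated by Entrez number through a RefSeq table (GRCr8). A gene's value was the mean of its probe sets. HDACI and vehicle were compared on 14506 genes by limma (version 3.58.1, R 4.3.3; functions lmFit, eBayes), two-sided, with Benjamini-Hochberg adjustment over all genes and no filter or block, and by an exact permutation test for single genes. The scripts were tested on simulated data. Array medians lay between 7.95 and 7.98 and correlations between arrays from 0.993 to 0.997; the number of arrays limits the precision. Named genes were those with an unadjusted p under 0.01 or no overlap, the 2 lowest and 2 highest of each complex, core subunits, isoform families, dim genes and, of each pathway list, the called or the 2 with the smallest p. Other genes named were chosen after their values were seen. The genes and lists were chosen with earlier results of these data known.

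Markers of astrocytes (8 genes, median 0.053), oligodendrocytes (9, -0.0024), microglia (10, 0.16), endothelial cells (9, 0.054), leptomeningeal fibroblasts (10, 0.17), Schwann cells (5, -0.12) and red blood cells (4, 0.40) were summarised too, and none of these genes had an unadjusted p under 0.01 in limma. Alternatives were other moderation, signal filters, further normalization, probe set rules, array weights, membership rules, the replicate number as a block and leaving out each array.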

Additional observations from a re-analysis of the deposited data

Results flagged for a closer look

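Of 92 groups of 4 arrays examined for the named genes and the 5 complexes, 3 held an array far from the others by Dixon's criterion, which marks about 1 group in 20 by chance. Sdhd on vehicle replicate 1 was at 10.65, above the other vehicle arrays at 10.48 to 10.51. Atp5f1e on vehicle replicate 4 was at 12.24, below the others at 12.48 to 12.53. Cox7a2 on HDACI replicate 1 was at 12.60, above the others at 12.43 to 12.44. The cause of these values was not tested.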

How the results depend on the processing

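The direction of the median difference over all 77 genes and of complexes I, II and V held under every alternative run, including each array left out in turn. The median over all genes of the chain then ran from -0.039 to -0.0088, and the number below 0 from 39 to 53. That of complex III ran from -0.0067 to 0.023. That of complex IV ran from -0.015 to 0.032 with 1 array left out, and was -0.016 without the tissue-restricted isoforms. The number of genes lower at an unadjusted p under 0.01 was 4 with trend and robust settings (Cox5a, Ndufb6, Ndufs1 and Ndufv1), 2 without moderation, 2 as single probe sets and 0 to 3 with 1 array left out. The number higher was 0 without moderation, 0 among genes above the median signal, where Cox4i2 and Cox6a2 are not tested, 1 with centring on the array median, 1 as single probe sets and 0 to 2 with 1 array left out. It stayed at 2 with other members under trend and robust settings (Cox6a2 and Ndufs5, with Cox4i2 at an unadjusted p = 0.0103 in limma) and with array weights (Cox4i2 and Ndufs5, with Cox6a2 at an unadjusted p = 0.0117 in limma). The cause of these changes was not tested.

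The correlation of deviations between the arrays of a replicate number was -0.27, 0.36, 0.036 and 0.056. Correlations across unlike numbers were not taken beside these, so whether the numbers pair the arrays cannot be told. With the replicate block 0 genes were lower and 2 higher (Cox4i2 and Cox6b2) at an unadjusted p under 0.01.

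Of the named genes, Cox6a1 (-0.023) and Cox8a (-0.0059) turned below 0 after a further quantile normalization. Over the fits with 1 array left out, differences near 0 changed sign: Sdhb ran from -0.055 to 0.016, Uqcrb from -0.088 to 8.774e-05, Uqcrfs1 from -0.014 to 0.069, Cox5b from -0.054 to 0.018, Cox6a1 from -0.022 to 0.033, Cox8a from -0.033 to 0.031, Cox8c from -0.12 to 0.033, Cox6c-ps1 from -0.10 to 0.033, Atp5f1a from -0.044 to 0.0016 and Atp5mc1 from -0.019 to 0.075. The number of arrays limits the precision.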

Other observations

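The arrays did not take their turn evenly as the extreme of the 8. HDACI replicate 2 was the lowest array for 28 of the 77 genes (36.4%, against 19.2% of all genes) and HDACI replicate 1 the highest for 21 (27.3%, against 8.5%). Vehicle replicate 4 was the lowest for 16 (20.8%, against 17.9%), among them Atp5mg, Atp5f1e, Uqcrq and Cox7a2l, which had some of the highest differences between HDACI and vehicle.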
